A study of Mus musculus with 8 samples.

Results

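The enzymes described here modify collagen inside the cell or cross-link it outside the cell, and 10 of their genes (Lox, Loxl1, Loxl2, Loxl3, Loxl4, Plod1, Plod2, P4ha1, P4ha2 and P4ha3) were taken as a set by name, out of 45321 genes to which reads were assigned. The rule is a list of names and uses no measured value, but the list was drawn up with earlier results of these data known. RNA was sequenced from adherent fibroblasts grown out of mouse colon and kept without further treatment. Fib-Ctrl cultures, homozygous for a loxP-flanked Zeb1 gene (Zeb1 flox/flox), were compared with Fib-dZeb1 cultures, from which Cre recombinase had removed the gene (Zeb1 del/del), to ask how the loss of this transcription factor changes the fibroblasts. Each genotype had 2 lines, numbered after the labels, with 2 replicate libraries each (4 Fib-Ctrl and 4 Fib-dZeb1 libraries). The sources used here give neither the age of the animals nor whether Fib-Ctrl cultures were exposed to Cre, so deletion and Cre exposure cannot be told apart. A further limit is that the labels do not tie a Fib-dZeb1 line to the Fib-Ctrl line of the same number.

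Fibrillar collagens are made as procollagen chains in the endoplasmic reticulum. Prolyl 4-hydroxylases, tetramers of catalytic alpha subunits (P4HA) and the beta subunit P4HB, hydroxylate proline and thereby stabilise the triple helix. Lysyl hydroxylases (PLOD) hydroxylate lysine, which prepares sites for glycosylation and for stable cross-links. After secretion and removal of the propeptides, copper-dependent lysyl oxidases (LOX and its LOXL relatives) oxidise lysine and hydroxylysine side chains to aldehydes that form the cross-links of collagen and elastin fibres. Myofibroblasts of scars and tumours are known for making these enzymes, and the prolyl and lysyl hydroxylases need oxygen, iron and 2-oxoglutarate.

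Libraries held 18852422 to 25540529 estimated reads. Levels within a gene are given as CPM, read counts divided by library size in megareads after TMM scaling, a correction for differences in library composition, and levels of different genes are compared in TPM, which also corrects for transcript length. A gene was called changed where the edgeR quasi-likelihood test, adjusted by Benjamini-Hochberg over all 12963 genes tested, gave a p under 0.05. Zeb1 itself dropped from 94.7 ± 2.71 to 14.3 ± 2.96 CPM after deletion (SD over 4 libraries; edgeR adjusted p = 4.8e-05). All 8 fibroblast markers checked were detected, with a summed level of 37200 to 48300 CPM in the Fib-Ctrl libraries against 11900 to 21200 CPM in Fib-dZeb1. Among them Col1a1, Col1a2, Pdgfrb and S100a4 were lower in Fib-dZeb1, whereas Vim, Dcn, Thy1 and Pdgfra were not called. Epithelial markers summed to 2.1 to 32.4 CPM against 20 to 130 CPM (Epcam and Krt18 called higher, Cdx2 at 0). Lgr5, on the same list, went the other way, from 12.2 ± 14.5 CPM (SD over 4 libraries) to 0.0527 CPM on average, and was not tested. Krt18 averaged 42.6 ± 54.5 CPM in Fib-dZeb1. The 6 markers of smooth muscle and interstitial cells of Cajal summed to 1530 to 3130 CPM against 416 to 590 CPM (Cnn1 and Actg2 lower, Ano1 higher, with Des and Kit at or below 0.272 CPM on average in either genotype). Endothelial, immune and glial lists stayed at or below 13.6 CPM in sum in every library, and mesothelial markers at or below 23.4 CPM (Msln called higher, from 0.0258 to 3.83 CPM on average). What these marker differences contribute to the results was not tested. Fewer cells of a type and less RNA per cell cannot be told apart in such bulk libraries. Xist reads were present in Fib-dZeb1 line 1 alone (113 CPM or more), and Ddx3y reads in the other 3 lines (32.9 to 111 CPM), so that line differs from the rest in sex. Fib-dZeb1 line 1 therefore does not share an animal with either Fib-Ctrl line.

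Of the 10 genes, 6 were lower in Fib-dZeb1, none was higher and 4 were not called. With a correlation within lines estimated by limma-voom (0.543), 2 of the 6 stayed called, Loxl1 and P4ha1, where 1.13% of all genes were called lower. DESeq2 called the same 6 genes as edgeR and none higher (12.9% of all genes lower and 11.9% higher), and at an unadjusted edgeR p under 0.05 none was higher either, against 16% of all genes. Over all genes tested, 8.65% were called lower and 7.54% higher. Lox and Loxl3 fell most, by 2.94-fold and 2.79-fold, followed by P4ha3, P4ha2, Loxl1 and P4ha1, which fell by 2.18-fold to 1.64-fold. That order depended on Fib-Ctrl line 2. Without that line, the largest fall was that of P4ha2 (log2 fold change -1.47), followed by Lox (-1.23), P4ha3 (-1.05) and Loxl3 (-0.88). Loxl2, Loxl4, Plod1 and Plod2 had lower means in Fib-dZeb1 but overlapped between genotypes, and the lower mean of Loxl2 depended on 1 Fib-Ctrl library (log2 fold change 0.09 without it). The median log2 fold change of the 10 genes was -0.77, and that of all genes tested was -0.01 (-0.005). Ranges of the genotypes did not overlap for 5 of the 10 genes, with Fib-dZeb1 lower in all 5, whereas 12.3% of all genes tested were separated in that way. All 10 genes passed the expression filter. The p-values count replicates of a line as independent samples. With reads summed per line, 2 lines against 2, edgeR called none of the 10 genes, with adjusted p-values from 0.153 upward. In that fit 7 of the 10 genes, and 14.5% of all genes, had an unadjusted p under 0.05. Scaling by library size alone shifted all genes upwards, by 0.18 on the log2 scale at the median, and left the same direction for all 10.

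**Figure D1:**
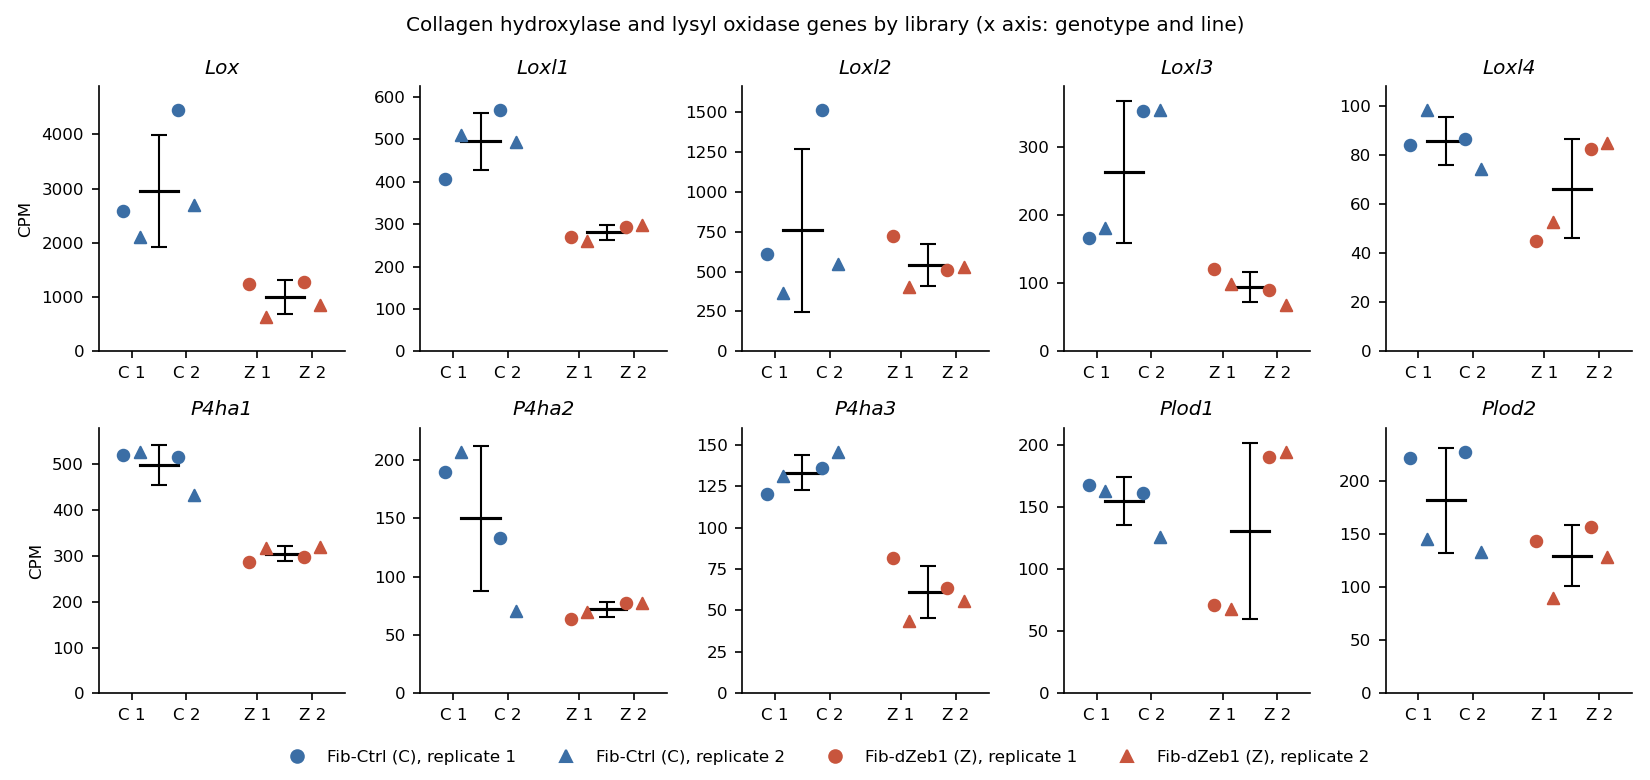
CPM of each gene (y axis, linear from 0) in the 8 libraries, by genotype and line (x axis). Circles are replicate 1 and triangles replicate 2, and black bars give the mean ± SD of the 4 libraries of a genotype. Lox, Loxl1, Loxl3, P4ha1 and P4ha3 were in every Fib-dZeb1 library below all Fib-Ctrl libraries, and the 2 Fib-dZeb1 lines stand apart for Plod1 and Loxl4.

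Lox, the founding lysyl oxidase, was the most abundant of the 10 genes, with a mean of 1234 TPM in Fib-Ctrl and 471 TPM in Fib-dZeb1. Its Fib-Ctrl libraries had 2586 and 2103 CPM (line 1) and 4449 and 2695 CPM (line 2) (replicates 1 and 2). In Fib-dZeb1, Lox had 1242 and 637.8 CPM (line 1) and 1282 and 861.2 CPM (line 2). The lowest Fib-Ctrl library thus lay above the highest Fib-dZeb1 library, and the means were 2958 ± 1027 and 1006 ± 310 CPM (SD, n = 4). Lox fell by 1.56 on the log2 scale (SE 0.29, edgeR adjusted p = 0.0111). Without both libraries of Fib-dZeb1 line 2, the log2 fold change was -1.65 and the edgeR adjusted p 0.0652, and limma-voom with a correlation within lines gave -1.55 and 0.107. Between the Fib-Ctrl lines Lox was called only with a block for replicate number or without an expression filter (edgeR adjusted p = 0.0378 with the block). Lox lies on chromosome 18 (GRCm38), where 5.68% of genes tested were lower.

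Loxl1, a relative that is required for elastic fibre upkeep in the mouse, was steadier between libraries. Fib-Ctrl had 406.4 and 509.7 CPM (line 1) and 568.6 and 494.5 CPM (line 2). Fib-dZeb1 had 269.9 and 260 CPM (line 1) and 294 and 297.8 CPM (line 2). All 4 Fib-dZeb1 values lay within a band of 260 to 297.8 CPM, below every control. Loxl1 fell by 0.82 on the log2 scale (SE 0.12, edgeR adjusted p = 0.0051), and its call was lost only with reads summed per line.

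Loxl3, which shares scavenger receptor repeats with Loxl2 and Loxl4, showed a difference between lines as well as between genotypes. The Fib-Ctrl libraries had 166 and 180.3 CPM (line 1) but 352.8 and 353.8 CPM (line 2). In Fib-dZeb1 the values were 120.3 and 98.3 CPM (line 1) and 90.59 and 68.34 CPM (line 2). Every Fib-dZeb1 library was below both Fib-Ctrl lines, and Loxl3 fell by 1.48 on the log2 scale (SE 0.30, edgeR adjusted p = 0.0141). Within Fib-Ctrl, line 2 exceeded line 1 by 1.03 on the log2 scale (SE 0.16, edgeR adjusted p = 0.00672), where 17.0% of all genes were called between these lines. A block for line and replicate number gave an edgeR adjusted p of 0.0599 for the genotype difference of Loxl3. Without Fib-dZeb1 line 2 it was 0.108, and limma-voom with a correlation within lines gave 0.0593. Without Fib-Ctrl line 2 the log2 fold change of Loxl3 was -0.88 (edgeR adjusted p = 0.0347).

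Loxl2 and Loxl4 were not called. LOXL2 cross-links type IV collagen and is also found in the cell nucleus. Its Fib-Ctrl libraries ranged from 366.1 to 1511 CPM, and the highest value, in line 2 replicate 1, stood far above the next one (607.5 CPM). Fib-dZeb1 libraries had 405.2 to 721 CPM and lay inside that range. The log2 fold change of Loxl2 was -0.48 with a 95% interval from -1.41 to 0.44 (edgeR adjusted p = 0.449), so neither a 2-fold fall nor a small rise lay outside the interval. The direction depended on that library, since the log2 fold change was 0.09 without it (edgeR adjusted p = 0.831) and 0.15 without both libraries of Fib-Ctrl line 2. The mean of Loxl2 was lower in Fib-dZeb1 in 2 of the 4 pairs of lines. Loxl2 is on chromosome 14, where 25.5% of genes tested were higher and 2.29% lower in Fib-dZeb1.

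Loxl4 was the least abundant lysyl oxidase, at 39.3 TPM in Fib-Ctrl and 35.5 TPM in Fib-dZeb1 on average. Fib-Ctrl had 84.01 and 98.4 CPM (line 1) and 86.66 and 74.29 CPM (line 2). Fib-dZeb1 line 1 was low, with 45.16 and 52.87 CPM, and line 2 was within the control range, with 82.62 and 85.01 CPM. The genotype log2 fold change was -0.37 (95% interval from -0.85 to 0.12, edgeR adjusted p = 0.265). Between the Fib-dZeb1 lines Loxl4 differed by 0.77 on the log2 scale (SE 0.13, edgeR adjusted p = 0.0209), in a comparison that called 6.87% of all genes. The contrast of Fib-dZeb1 line 1 alone with Fib-Ctrl, chosen after the values were seen, gave a log2 fold change of -0.81 (edgeR adjusted p = 0.0349), and that of line 2 alone gave -0.03 (0.884).

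The makeup of the lysyl oxidase family also differed. The summed TPM of the 5 genes was 1369 to 2818 for Fib-Ctrl and 655.5 to 1097 for Fib-dZeb1. Lox made up 63.2% to 67.4% of that sum in the Fib-Ctrl libraries and 43.8% to 56.8% in the Fib-dZeb1 libraries. Loxl2 made up 8.95% to 17.5% in Fib-Ctrl libraries and 18.4% to 24.1% in Fib-dZeb1 libraries. These shares were computed after the values of the genes were known and were not tested. The ranges of both shares were separate, with Lox taking less and Loxl2 more of the family in every Fib-dZeb1 library. The shares are parts of one sum and do not vary independently, and Loxl2 itself was not called. In Fib-Ctrl the order by mean TPM was Lox (1234), Loxl1 (253.4), Loxl2 (251.1), Loxl3 (113) and Loxl4 (39.3). The libraries of Loxl2 overlapped there with those of Loxl1 and of Loxl3, its neighbours in that order. In Fib-dZeb1 it was Lox (471), Loxl2 (204), Loxl1 (162), Loxl3 (47.8) and Loxl4 (35.5). There Loxl2 overlapped with Loxl1, and Loxl3 with Loxl4.

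**Figure D2:**
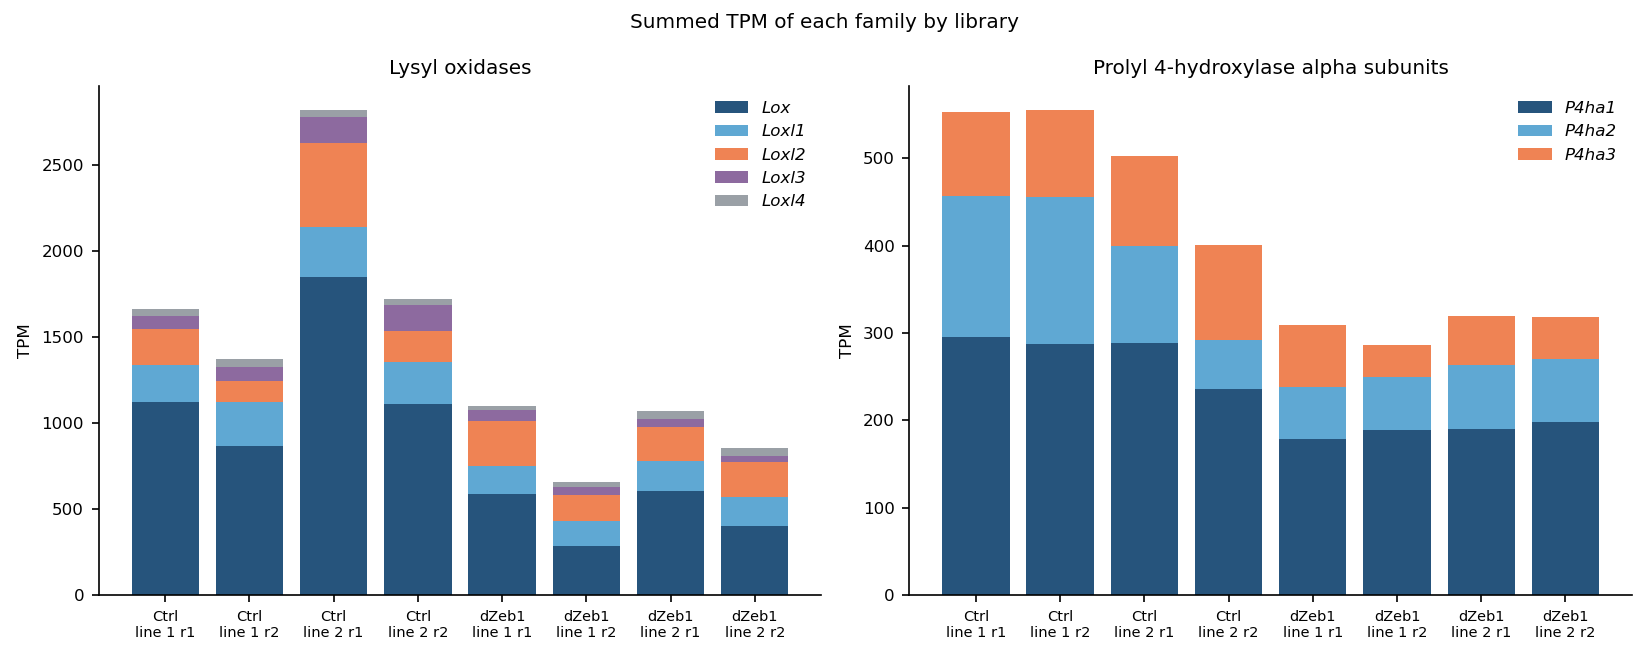
Summed TPM (y axis, linear from 0) of the 5 lysyl oxidase genes (left) and of the 3 genes for alpha subunits of prolyl 4-hydroxylase (right) in each library (x axis, r1 and r2 are replicates), split by gene. Lysyl oxidases totalled 1369 to 2818 TPM in Fib-Ctrl and 655.5 to 1097 TPM in Fib-dZeb1, and the alpha subunits 401.1 to 555.1 and 285.9 to 319.1 TPM.

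The 3 genes for catalytic alpha subunits of prolyl 4-hydroxylase were all lower in Fib-dZeb1. P4ha1 encodes the main alpha subunit of most cells, P4ha2 a form prominent in cartilage and endothelium, and P4ha3 the last of the family to be found. The 250 bases upstream of the RefSeq transcription start (build GRCm38.p6, plus strand for all 3) are printed because these genes fell together and the RefSeq table held a promoter for each. Capitals mark ACGTG or GCGTG on either strand (printed as CACGT or CACGC where it lies on the other strand), the core of the hypoxia response element bound by HIF factors. The E-box CACCTG bound by ZEB1, searched on both strands, would be in capitals as well.
P4ha1 chr10:59323046-59323295: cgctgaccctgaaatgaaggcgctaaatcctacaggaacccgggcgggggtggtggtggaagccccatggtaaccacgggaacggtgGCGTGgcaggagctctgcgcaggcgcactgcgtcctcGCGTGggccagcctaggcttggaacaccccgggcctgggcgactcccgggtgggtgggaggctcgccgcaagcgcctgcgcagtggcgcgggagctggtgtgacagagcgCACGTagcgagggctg
P4ha2 chr11:54100674-54100923: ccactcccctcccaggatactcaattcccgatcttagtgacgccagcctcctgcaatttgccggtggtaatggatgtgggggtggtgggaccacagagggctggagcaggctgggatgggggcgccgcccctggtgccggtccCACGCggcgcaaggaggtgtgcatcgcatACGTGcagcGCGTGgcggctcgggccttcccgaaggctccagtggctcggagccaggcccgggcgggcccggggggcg
P4ha3 chr7:100285270-100285519: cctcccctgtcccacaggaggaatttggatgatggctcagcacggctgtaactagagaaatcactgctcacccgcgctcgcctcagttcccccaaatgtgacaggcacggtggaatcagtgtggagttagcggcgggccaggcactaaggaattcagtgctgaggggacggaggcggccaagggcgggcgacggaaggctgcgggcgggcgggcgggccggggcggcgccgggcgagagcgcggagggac
None of the 3 windows held CACCTG or its complement CAGGTG, which 17.2% of 32851 mouse promoter windows of the same length held. The hypoxia core was present 3 times in P4ha1 and 3 times in P4ha2, without overlap, and not at all in P4ha3, against 38.6% of windows with at least 1. GC content was 69.6%, 70% and 67.2%, where the median window had 52.4%. A match describes letters in the window only, and no binding was measured.

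P4ha1 had the second highest mean TPM of the 10 genes in Fib-Ctrl (277 TPM, and 189 TPM in Fib-dZeb1), in a range that overlapped with those of Loxl1 and Loxl2. Its Fib-Ctrl values were 519.7 and 527 CPM (line 1) and 517.1 and 433.4 CPM (line 2). The Fib-dZeb1 libraries had 286.1 and 317.7 CPM (line 1) and 297.2 and 319.7 CPM (line 2). Of the 10 estimates this one had the smallest standard error, with 499 ± 44 CPM against 305 ± 16 CPM (SD, n = 4) and no overlap. P4ha1 fell by 0.71 on the log2 scale (SE 0.10, edgeR adjusted p = 0.0044), and as with Loxl1 the call was lost only with reads summed per line. On its chromosome, 10, 17.7% of genes tested were lower and 2.23% higher.

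P4ha3 had 120.2 and 131 CPM in Fib-Ctrl line 1 and 136 and 145.5 CPM (line 2). In Fib-dZeb1 it had 81.59 and 43.58 CPM (line 1) and 63.43 and 55.86 CPM (line 2). Again no Fib-dZeb1 library reached the lowest control, and P4ha3 fell by 1.124 on the log2 scale (SE 0.18, edgeR adjusted p = 0.00677). Without Fib-dZeb1 line 2 the log2 fold change was -1.09 (edgeR adjusted p = 0.059), and limma-voom with a correlation within lines gave -1.16 (0.0791). P4ha3 lies on chromosome 7, where 16% of genes tested were lower.

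P4ha2 was the least secure of the 6 calls. Fib-Ctrl line 1 had 190 and 206.8 CPM, line 2 had 132.8 CPM in replicate 1 and 70.31 CPM in replicate 2. The Fib-dZeb1 libraries had 64.12, 69.95, 77.15 and 77.37 CPM, so Fib-Ctrl line 2 replicate 2 lay among them. P4ha2 fell by 1.06 on the log2 scale (SE 0.29, edgeR adjusted p = 0.0428). Leaving out any library other than that replicate ended the call (edgeR adjusted p 0.0715 to 0.0985), and leaving that replicate out gave -1.30 with an edgeR adjusted p of 0.00584. Without both libraries of Fib-Ctrl line 1 the log2 fold change was -0.50 (0.196). With a block for replicate number, which the libraries of different lines share, the edgeR adjusted p was 0.0619 and P4ha2 was not called. Between the Fib-Ctrl lines, P4ha2 was lower in line 2 by a log2 difference of -0.97 (SE 0.25, edgeR adjusted p = 0.0399).

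Within the prolyl 4-hydroxylase family the makeup overlapped between genotypes. P4ha1 gave 51.7% to 58.9% of the summed TPM of the 3 alpha subunits in control libraries and 57.7% to 66.0% in Fib-dZeb1. P4ha3 gave 17.4% to 27.3% and 12.6% to 23.1%. The beta subunit gene P4hb averaged 1559 ± 159 CPM before and 1194 ± 56 CPM after deletion (SD, n = 4), and it fell by 0.39 on the log2 scale (SE 0.10, edgeR adjusted p = 0.0389). P4HB is also the protein disulfide isomerase of the endoplasmic reticulum.

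Neither lysyl hydroxylase gene among the 10 was called. PLOD1 hydroxylates lysine in the triple helix. Plod1 had 167.8 and 163.1 CPM in Fib-Ctrl line 1 and 161 and 125.8 CPM (line 2). In Fib-dZeb1 it had 71.47 and 67.9 CPM (line 1) but 189.8 and 194 CPM (line 2). One Fib-dZeb1 line was thus below all controls and the other above all controls. The difference between those lines was 1.46 on the log2 scale (SE 0.13, edgeR adjusted p = 0.0019). The genotype log2 fold change of Plod1 was -0.24 (95% interval from -1.06 to 0.58, edgeR adjusted p = 0.685). Fib-dZeb1 line 1 alone against Fib-Ctrl, a contrast chosen after the values were seen, gave -1.15 (edgeR adjusted p = 0.018). That contrast called 433 of all genes lower and 384 higher. Line 2 alone gave 0.32 (0.174). Line 1 is the one with Xist reads, and sex and other differences between these lines cannot be told apart.

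PLOD2 hydroxylates lysine in the telopeptides, which directs cross-links to the hydroxyallysine route known from fibrosis. Plod2 had 221.5 and 145.5 CPM in Fib-Ctrl line 1 and 226.9 and 132.8 CPM (line 2). In Fib-dZeb1 the values were 143.5 and 89.59 CPM (line 1) and 156.4 and 128.7 CPM (line 2). The genotypes overlapped, and replicate 1 exceeded replicate 2 in all 4 lines. Within each replicate number, the Fib-dZeb1 libraries lay below the Fib-Ctrl libraries. The log2 fold change was -0.49 (95% interval from -1.01 to 0.04, edgeR adjusted p = 0.179). With a block for replicate number it was -0.47 (SE 0.13, edgeR adjusted p = 0.0532), and Plod2 stayed uncalled. The mean of Plod2 was lower in Fib-dZeb1 in 4 of the 4 pairs of lines. These pairs reuse the same line means and are not independent, and the share of all genes with that pattern is not given here. Plod3, the third lysyl hydroxylase, which also has glycosyltransferase activity, went from 254 ± 24 to 178 ± 14 CPM (SD, n = 4) and fell by 0.51 on the log2 scale (SE 0.10, edgeR adjusted p = 0.0143).

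**Figure D3:**
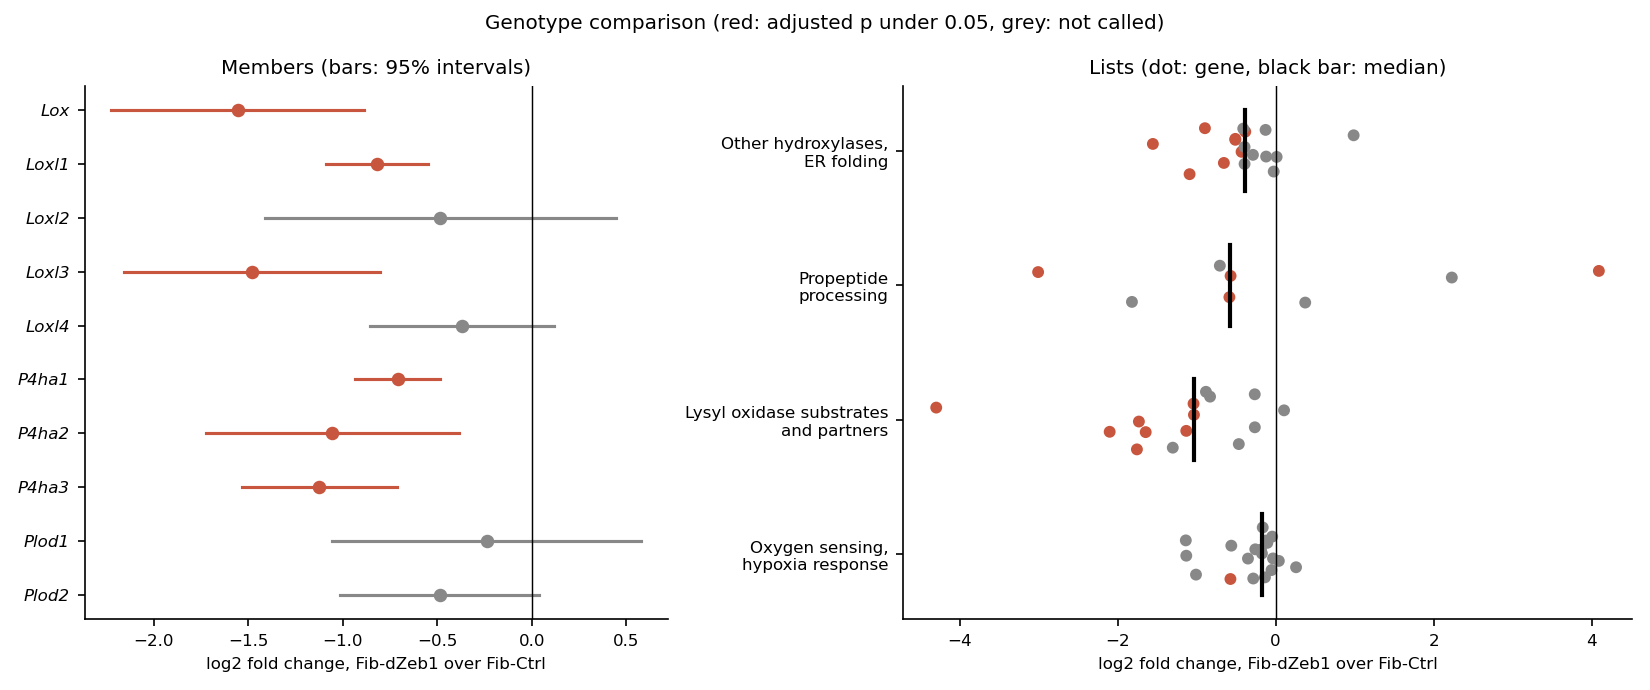
Log2 fold change of Fib-dZeb1 over Fib-Ctrl (x axis) for the 10 genes with 95% intervals (left) and for the genes of 4 lists (right, one dot per gene, black bar the median, vertical position within a list without meaning). Red marks an edgeR adjusted p under 0.05. All 10 estimates lie below 0, and the intervals of Loxl2, Loxl4, Plod1 and Plod2 include 0.

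The replicate pattern of Plod2 was examined across the set, a comparison chosen after the values were seen. A fit with a mean for each line and a term for replicate number called none of the 10 genes, with 3 of them at an unadjusted p under 0.05 (19.6% of all genes), while 0.00771% of all genes (1 of 12963) were called lower and 2 higher. Lox was lower in replicate 2 than in replicate 1 in 4 of 4 lines, with a log2 difference of -0.64 (SE 0.11, edgeR adjusted p = 0.0982). Plod2 was lower in 4 of 4 lines as well, with -0.59 (SE 0.09, edgeR adjusted p = 0.0944). Loxl2 was lower in 3 of 4 lines (-0.75, SE 0.22, edgeR adjusted p = 0.156). P4ha1 (0.01, 0.005 before rounding) and Loxl1 (0.02) showed hardly any difference. Genes of the oxygen-sensing and hypoxia list had a median difference of 0.23 between replicates 2 and 1, against -0.15 for the 10 genes and -0.014 for all genes. None of the 19 tested was called, and 4 had an unadjusted edgeR p under 0.05, where 19.6% of all genes did. The sources used here do not say what separated the replicates.

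**Figure D4:**
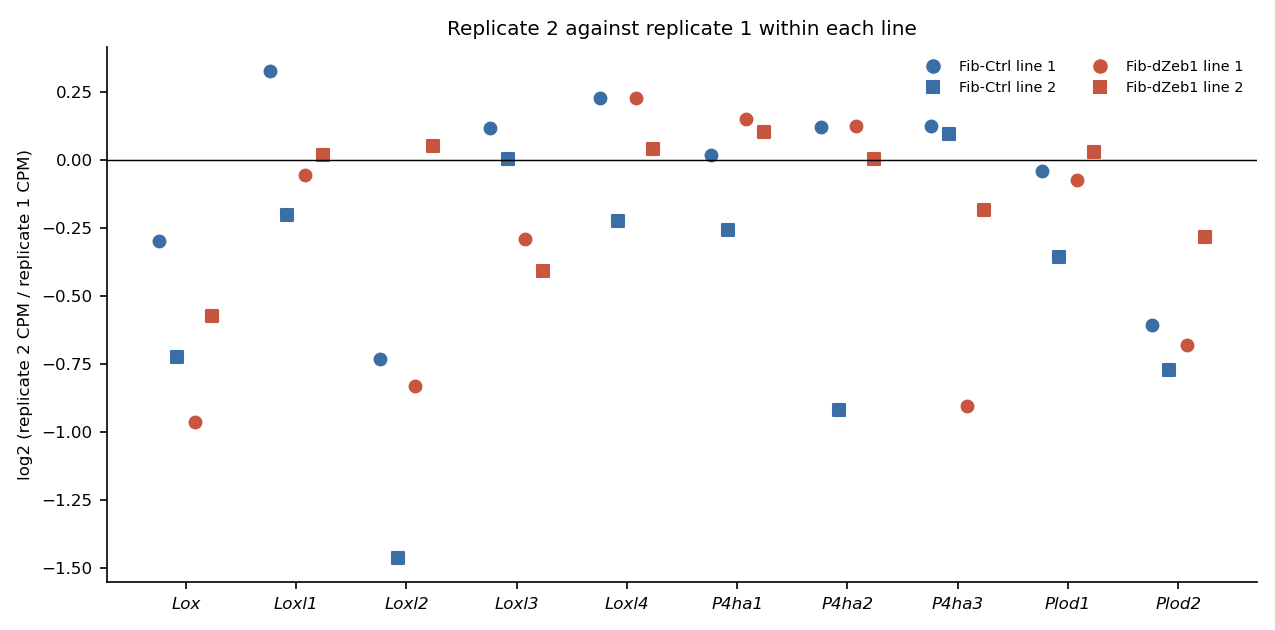
Log2 ratio of the CPM in replicate 2 to that in replicate 1 (y axis) for each of the 10 genes (x axis) and each line (one symbol per line, colour for genotype). The points of Lox and Plod2 lie below 0 in all 4 lines, and those of P4ha1 and Loxl1 scatter around 0.

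Transcript use within the genes was compared as a readout that the list of names did not use, although earlier results of these data were known. Shares of a gene's TPM were tested for 8 protein-coding transcripts of 4 genes (Lox, Loxl2, P4ha1 and P4ha2), and none was called by exact permutation (two-sided, 70 arrangements, lowest adjusted p 0.571, none with an unadjusted p under 0.05). With 4 against 4 libraries the exact permutation test cannot go below p = 0.0286, and 5 of the 8 shares would have to reach that value for any to pass after adjustment, so a shift in 1 gene could not have been called. P4ha1 has mutually exclusive versions of exon 9. P4ha1-203 took 69.7% to 75.7% of the gene's TPM and P4ha1-201 18.3% to 23.5%, and the mean share of P4ha1-203 was 72.9% ± 2.5 in Fib-Ctrl and 73.9% ± 2.0 in Fib-dZeb1 (SD, n = 4, exact permutation p = 0.571). P4ha2 likewise has alternative versions of exon 13. P4ha2-202 took 64.2% ± 7.2 of the TPM in Fib-Ctrl and 64.5% ± 5.7 in Fib-dZeb1 (SD, n = 4, exact permutation p = 0.914). The unadjusted values of both genes were far from the smallest that the test allows.

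The alternative coding exons that tell these transcripts apart are shown in capitals between 12 bases of each neighbouring exon (GENCODE M21 transcripts, plus strand, GRCm38). The Plod2 exon is included because its long form is the one known to act on telopeptides.
P4ha1-201 chr10:59354340-59354410: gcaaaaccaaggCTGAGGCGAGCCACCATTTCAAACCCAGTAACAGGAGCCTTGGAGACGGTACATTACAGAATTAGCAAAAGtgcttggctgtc
P4ha1-203 chr10:59355350-59355420: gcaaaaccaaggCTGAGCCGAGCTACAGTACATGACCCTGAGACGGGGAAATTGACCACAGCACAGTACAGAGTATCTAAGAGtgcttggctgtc
P4ha2-201 chr11:54126346-54126411: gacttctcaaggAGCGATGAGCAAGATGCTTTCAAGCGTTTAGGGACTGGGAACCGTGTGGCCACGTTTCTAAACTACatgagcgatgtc
P4ha2-202 chr11:54126238-54126297: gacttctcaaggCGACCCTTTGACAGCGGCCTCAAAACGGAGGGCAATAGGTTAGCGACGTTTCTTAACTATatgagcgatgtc
Plod2-203 chr9:92601985-92602047: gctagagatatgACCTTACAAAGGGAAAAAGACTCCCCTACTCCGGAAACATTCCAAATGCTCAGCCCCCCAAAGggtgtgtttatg
The exon versions of P4ha1 have 71 bases each and match at 42 positions (59.2%), so reads over them are told apart. Those of P4ha2 have 66 and 60 bases. The Plod2 exon has 63 bases, a multiple of 3, and is exon 14 of 20 in Plod2-203. That long form took 94.95% to 98.6% of the TPM of Plod2 in every library, and the short form Plod2-201 took 1.08% ± 0.68 in Fib-Ctrl and 2.22% ± 1.45 in Fib-dZeb1 (SD, n = 4).

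A minor transcript of Loxl4, singled out after its values were seen and below the abundance set for testing, differed in share between genotypes. Loxl4-203 took 4.01% and 3.31% of the TPM of Loxl4 in Fib-Ctrl line 1 and 0.473% and 0.531% in line 2. It took 9.24% and 8.85% in Fib-dZeb1 line 1 and 8.82% and 13.3% in line 2. All Fib-dZeb1 values lay above all Fib-Ctrl values, but the share of all transcripts separated in this way was not computed. Loxl4 as a whole had 39.34 and 33.03 TPM in Fib-Ctrl line 2, so Loxl4-203 was near the floor there. The coding lengths of Loxl4-203 and of the main transcript Loxl4-201 are nearly equal, at 2274 and 2271 bases, and the shares rest on how Salmon divided the reads that both could have given.

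**Figure D5:**
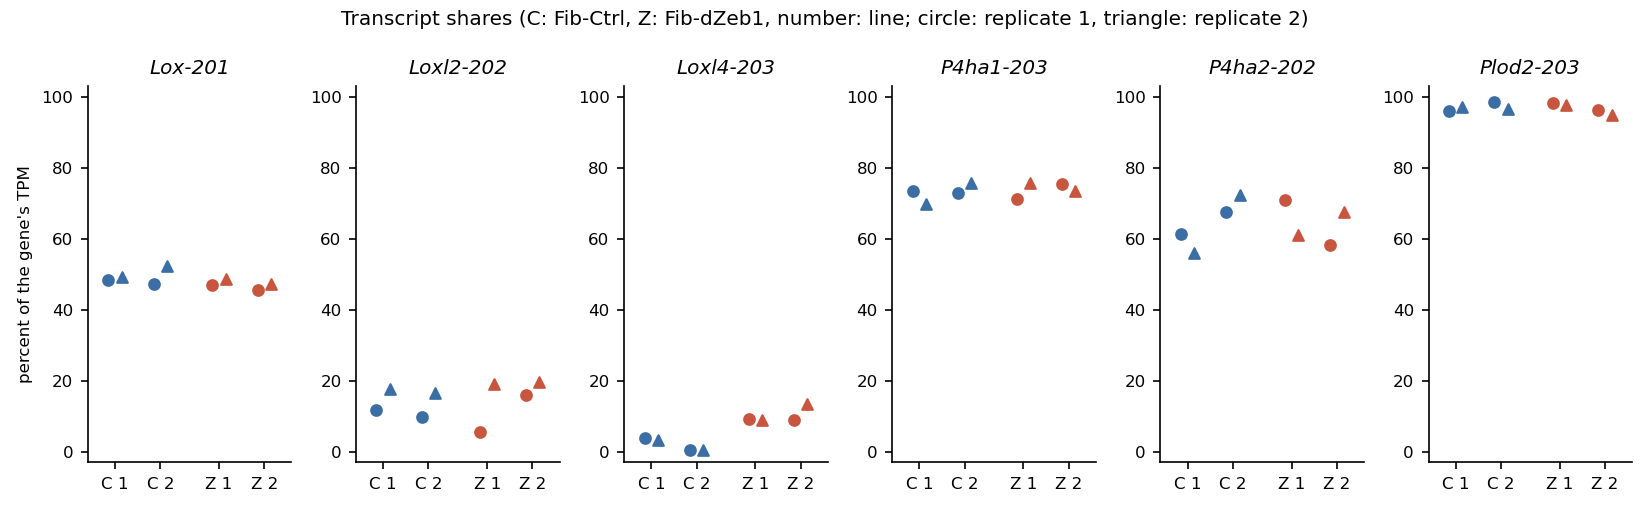
Share of the gene's TPM (y axis, percent) taken by 6 transcripts in each library, by genotype and line (x axis), with circles for replicate 1 and triangles for replicate 2. P4ha1-203, P4ha2-202 and Lox-201 overlap between genotypes, Plod2-203 stays at 94.95% or more, and Loxl4-203 is at 8.82% or more in Fib-dZeb1 and at 4.01% or less in Fib-Ctrl.

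The other genes of collagen maturation were read from 4 lists. Of the list of other hydroxylases and of folding in the endoplasmic reticulum, 17 of 18 genes were tested, 8 were lower and none was higher (median log2 fold change -0.39), by DESeq2 10 lower and none higher. For all genes tested the median was -0.005, with 8.65% lower and 7.54% higher by edgeR, and 12.9% lower and 11.9% higher by DESeq2. Creb3l1, a membrane-bound factor that activates collagen genes, fell by 1.56 on the log2 scale (SE 0.29, edgeR adjusted p = 0.0112), from 165 ± 58 to 56.3 ± 17 CPM (SD, n = 4). P3h4, a partner of the lysyl hydroxylase complex, fell by 1.09 (SE 0.19, edgeR adjusted p = 0.00842). The other genes called were Plod3, P4hb, P3h3, Serpinh1, Fkbp10 and Fkbp14. The share called lower in this list depended on scaling, since with library size alone 4 genes were called. That scaling called 719 of all genes lower and 2272 higher, against 1121 and 978 in the main fit.

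Genes for removal of the propeptides went both ways, with 3 lower and 1 higher among 8 of 9 tested (median -0.58). Over all genes, 8.65% were lower and 7.54% higher. Adamts2, the main procollagen N-proteinase, fell by 3.01 on the log2 scale, from 296 ± 63 to 36.8 ± 18 CPM (SD, n = 4, SE 0.34, edgeR adjusted p = 0.00184). Pcolce, which enhances removal of the C-propeptide, fell by 0.59 (SE 0.15, edgeR adjusted p = 0.0348), and Furin was lower as well. Pcolce2, its relative, rose from 4.69 ± 4.1 to 79.5 ± 17 CPM (SD, n = 4), a log2 fold change of 4.09 (SE 0.62, edgeR adjusted p = 0.0056). Bmp1, the C-proteinase that also activates LOX, had 234 ± 38 and 303 ± 31 CPM and was not called (edgeR adjusted p = 0.0993). Tll1, also on this list, went from 18.7 ± 19 to 87.7 ± 27 CPM (SD, n = 4) without overlap between genotypes. Its log2 fold change of 2.23 was not called (edgeR adjusted p = 0.126).

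Among substrates and partners of lysyl oxidases, 15 of 16 genes were tested, 8 were lower and none was higher (median -1.04), with the same counts by DESeq2. Of all genes, edgeR called 8.65% lower and 7.54% higher, and DESeq2 12.9% and 11.9%. Fmod, fibromodulin, which binds collagen and LOX, fell by 4.30 on the log2 scale (SE 0.78, edgeR adjusted p = 0.00964), from 184 ± 119 to 9.4 ± 8.1 CPM (SD, n = 4). Col5a1, a chain of type V collagen, fell by 2.10 (SE 0.29, edgeR adjusted p = 0.0044). The other 6 were Col1a1, Col1a2, Col5a2, Fbn1, Fn1 and Efemp2, the last encoding fibulin-4, which brings LOX to elastin. The copper transporter gene Atp7a and the copper chaperone gene Atox1, which serve the loading of lysyl oxidases with copper, were not called.

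The oxygen-sensing and hypoxia list was tested because several of the 10 genes, such as P4ha1, Plod2 and Lox, are known HIF targets. Of 19 of 20 genes tested, edgeR called only Hif1a, where 8.65% of all genes were lower, and DESeq2 called 4 genes, all lower, against 12.9% of all genes. Hif1a went from 282 ± 16 to 189 ± 22 CPM (SD, n = 4) and fell by 0.57 on the log2 scale (SE 0.11, edgeR adjusted p = 0.0104). The median of this list was -0.17. Vegfa, a HIF target, had 149 ± 69 and 68.0 ± 24 CPM and was not called (edgeR adjusted p = 0.0628). With reads summed per line, edgeR called no gene of any of the 4 lists, and 7, 4, 9 and 2 of their genes, in the order given, had an unadjusted p under 0.05, as did 14.5% of all genes.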

How the data were processed

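Per the labels and the study's methods, the authors aligned reads to mouse GRCm38 with STAR and quantified transcripts with Salmon in an nf-core pipeline. The sources used here give no version of STAR or Salmon and no strand setting, so reads of overlapping antisense genes cannot be told apart. The deposited tables hold the estimated count of reads, without normalization, and TPM for each transcript. The authors' DESeq2 comparison was not used.

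Both were summed to genes with GENCODE M21 (108214 of 109617 transcripts, 98.72%; the rest held 0.262% to 0.303% of reads), and count sums were rounded. Genotypes were compared with edgeR 4.0.16 in R 4.3.3 (quasi-likelihood test, TMM, filterByExpr, genotype as the only term). A fit with a mean for each line compared lines and, with a replicate term, replicates. The 95% intervals came from the coefficient and its F statistic. Transcript shares (10% to 90% on average, genes of at least 5 CPM) were compared by exact permutation. DESeq2 1.42.0, limma 3.58.1, other scalings and filters, blocks and left-out libraries were alternatives, and left-out lines, the replicate comparison and the family shares were added after seeing the data. The tests were checked on simulated data.

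The 10 genes, the lists and the tests were chosen with earlier results of these data known. Named were all 10 genes and, of each list, up to 2 called genes in each direction with the largest log2 fold change and at least 5 CPM in the higher genotype. P4hb, Plod3, Bmp1, Tll1, Atp7a, Atox1, Vegfa, marker genes given with values and genes given by name alone were added after their values were seen. Libraries of the same line and replicate number were not taken as pairs, since their deviations from the genotype means correlated at 0.20, -0.04, -0.04 and 0.07. Line 1 of Fib-dZeb1 and line 1 of Fib-Ctrl also differed in sex. The block for line and replicate number thus joins libraries of different animals there. The replicate number itself was shared structure: the change from replicate 1 to 2 correlated between all lines (0.14 to 0.34), so results that a block for replicate number alters are given with it. Replicate libraries differed beyond sampling noise, and no 2 libraries were identical. The labels do not say how replicates of a line were separated, so p-values measure only the spread between these libraries, which may be technical.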

Additional observations from a re-analysis of the deposited data

Results flagged for a closer look

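Outliers were sought in 36 groups of 4 libraries (10 genes and 8 transcript shares in each genotype). The gap between the most extreme value and the next was divided by the range of all 4, and high ratios were flagged. Chance flags about 1 in 20 such groups. P4ha1 had 433.4 CPM in Fib-Ctrl line 2 replicate 2, below the other Fib-Ctrl libraries at 517.1 to 527 CPM, and Plod1 had 125.8 CPM in the same library, below 161 to 167.8 CPM. The P4ha2 level of that library (70.31 CPM) was also the lowest of Fib-Ctrl. Without it, the log2 fold change of P4ha1 stayed called, and Plod1 stayed uncalled.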

How the results depend on the processing

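Among the 10 genes, 6 were lower in Fib-dZeb1 and none higher. DESeq2, DESeq2 size factors within edgeR and no expression filter called the same 6. Leaving out 1 library at a time gave 5 to 6 lower genes and none higher, and P4ha2 was the gene lost, in 7 of the 8 cases. Library size alone and limma on TPM also lost P4ha2 alone. limma-voom with a correlation within lines (0.543) called 2 (Loxl1 and P4ha1), and reads summed per line called 0. A block for replicate number called 5 genes without P4ha2 (edgeR adjusted p = 0.0619) and changed no other genotype call of the 10, and a block for line and replicate number called 4, without P4ha2 (0.111) and Loxl3 (0.0599). Only 3 of 8 libraries were closest in correlation to the library of their own number. Without Fib-dZeb1 line 2, 4 were called, among them Loxl4 and Plod1. Called between Fib-Ctrl lines were 2 of the 10 genes, near the share of all genes called there (17.0%). Without an expression filter it was 4 (Lox and Loxl2 added), and the share of all genes in that fit is not given here. The block for replicate number called Lox between Fib-Ctrl lines (0.0378). With library size alone, 4 of the folding list were lower and 2 of the propeptide list higher, and with reads summed per line every list had 0 genes called in either direction. Over all genes, library size alone called 2272 higher and 719 lower, limma on TPM 1985 and 726, DESeq2 1544 and 1670, limma-voom 114 and 146, and reads summed per line 9 and 7, against 978 and 1121, and leaving out 1 library gave 476 to 1011 higher and 508 to 1141 lower, and leaving out Fib-dZeb1 line 2 gave 384 and 433. No direction of a called gene reversed; of those not called, Loxl2 was at 0.09 without Fib-Ctrl line 2 replicate 1 and 0.15 without that line, and Plod1 at 0.32 without Fib-dZeb1 line 1. Leaving out a library from the transcript shares left 3 against 4, where no p can be below 0.0571.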
